A study of Mus musculus with 2 samples.

Results

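The genes described here encode lysosomal hydrolases, proteins of the lysosomal membrane, soluble lysosomal cofactors, the vacuolar proton pump (V-ATPase) and the transcription factors Tfeb and Tfe3. They were 31 listed genes plus 26 protein-coding genes whose symbol begins with Atp6v or Atp6ap, in all 57 of 55536 gene rows, of which 22028 were protein-coding. By class there were 19 hydrolases, 7 membrane proteins, 3 soluble cofactors, 26 genes with pump symbols and 2 transcription factors. A further 2 genes of the symbol pattern had no protein-coding transcript and were left out. No measured value entered the rule that chose the genes, although earlier results of these data were known when they were chosen.

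The libraries were made from polyadenylated RNA of whole-cell extracts. The cells were primary macrophages grown from the bone marrow of C57BL/6J mice. There was 1 group of 2 libraries, called biological replicates 1 and 2 by the labels, each from cells treated at 100 ng/mL for 300 min. The labels give the agent once as Lipid A and elsewhere as lipoprotein A, so it is called the stimulus here. Sex and age were not collected, and no label gives a genetic change. Both libraries share 1 donor record and have separate biosample records, so the spread between them may be partly technical. No unstimulated cells were analysed here, so every value is a level after stimulation and none is a response to it.

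Lysosomes break down what macrophages engulf. Their hydrolases work at acid pH, the V-ATPase moves protons into the lumen to keep it acid, and a coat of glycosylated membrane proteins lines the inner face of the membrane. Tfeb and Tfe3 belong to the MiT family of transcription factors, which is known to switch on many lysosomal genes through a DNA element built around the letters CACGTG.

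Expected counts, the estimated reads per gene, summed to 38028201 in replicate 1 and 63649100 in replicate 2, of which the 57 genes held 1121891 and 2139977. All 8 macrophage markers (among them Csf1r, Cd68 and Adgre1) were at 1 TPM or more in both libraries, where TPM is a count of transcripts in proportion to all transcripts of the library, a level scaled to transcript length. None of the 4 fibroblast, 3 B cell and 3 T cell markers was. Neutrophil markers summed to 589 TPM in replicate 1 and 171 TPM in replicate 2, with 4 of 9 at 1 TPM in both and Ly6g at 0 counts. The members went opposite ways, since Csf3r was at 81.7 and 152.6 TPM while S100a9 was at 316 and 10.2 TPM, and S100a8, S100a9, Ngp and Ltf had log2 ratios (replicate 2 over replicate 1) between -4.61 and -4.11. Of the megakaryocyte and platelet markers, 2 of 3 were at 1 TPM in both libraries, with Pf4 at 753 and 105 TPM. Of the dendritic cell markers, 1 of 4 was, Ccr7 at 9.85 and 2.92 TPM. The part of these cell types in the differences between the libraries given below was not tested. Osteoclast markers summed to 199.9 and 107.6 TPM, with 3 of 8 at 1 TPM in both and Calcr at 0 counts. In bulk RNA, fewer cells of a type and less RNA per cell cannot be told apart.

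The lysosomal genes were broadly and strongly transcribed in these macrophages. At 1 TPM or more in both libraries were 49 of the 57 (86.0%), against 42.4% of all protein-coding genes. At 100 TPM or more were 26 of the 57, against 5.08% of all protein-coding genes, and Psap, Lamp1, Lgmn and Cd63 exceeded 1000 TPM in both libraries. Together the 57 genes held 2.18% of all TPM in replicate 1 and 2.60% in replicate 2. All hydrolases, membrane proteins, cofactors and both transcription factors were detected at 1 TPM, and 18 of the 26 pump symbols were. The 8 undetected genes all carried pump symbols.

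**Figure D1:**
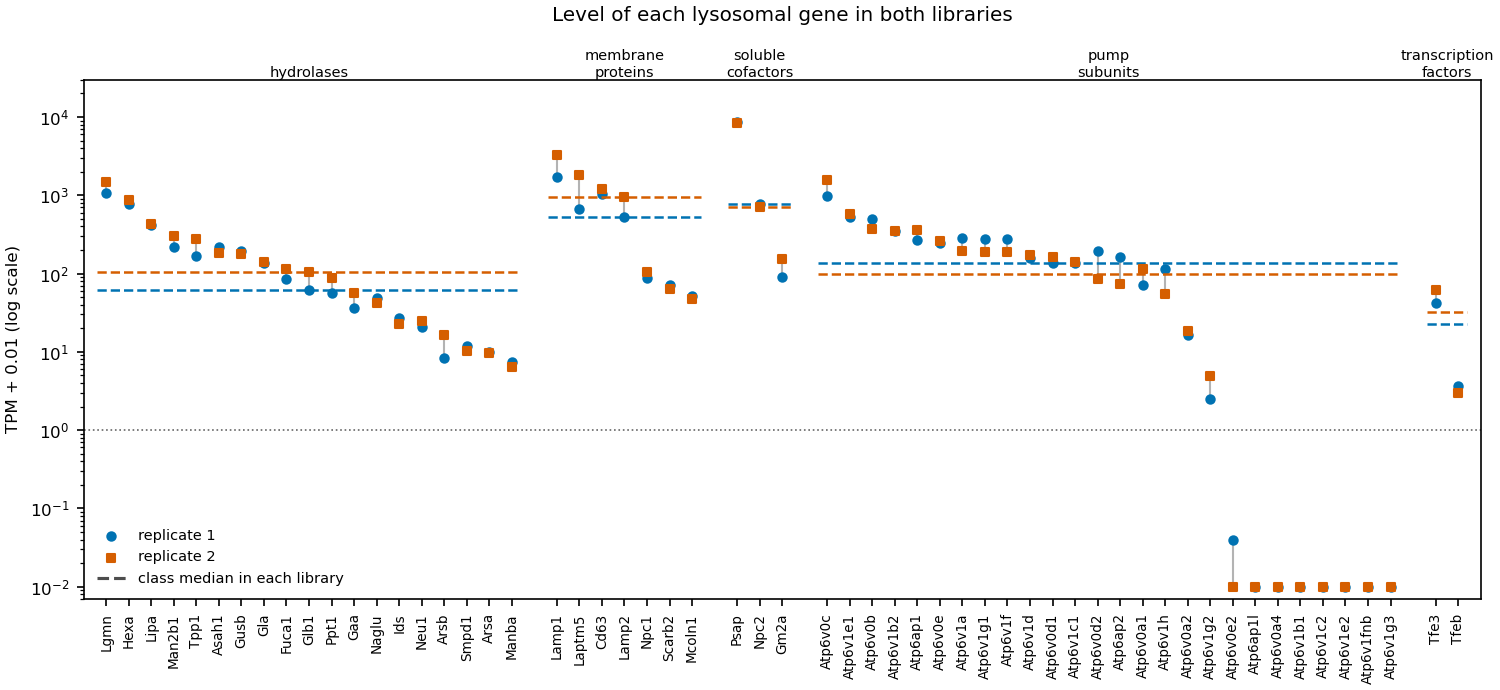
Each point is the level of 1 gene in 1 library, as TPM plus 0.01 on a log axis, with circles for replicate 1 and squares for replicate 2, grouped by class and ordered by mean level. Dashed lines are class medians over all genes of the class, the dotted line marks 1 TPM, and the 8 genes at the bottom are the undetected pump symbols.

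The 7 listed membrane proteins had a higher middle level than the 19 listed hydrolases in both libraries. Median TPM was 528 and 943 for the membrane proteins (mean 736 ± 293, SD, n = 2), and 61.3 and 104.8 for the hydrolases (mean 83.0 ± 30.8, SD, n = 2). Over detected protein-coding genes the median was 15.1 and 14.4 TPM. The log2 ratio of the membrane median over the hydrolase median was 3.11 in replicate 1 and 3.17 in replicate 2, so the gap had nearly the same size in both libraries. Its mean was 3.14 ± 0.04 (SD, n = 2), which is far above the spread between the libraries. Both classes were measured in the same 2 libraries, so a two-sided exact permutation test of the paired differences could not go below 0.5, and no p is given. The order belongs to these listed genes: in the wider list described at the end, 15 other transporters and membrane proteins had medians of 8.85 and 10.1 TPM and 21 other hydrolases 58.95 and 61.5 TPM.

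Where the pump stood against the hydrolases in replicate 2 depended on which symbols were counted. Its median over all 26 symbols was 134.8 and 100.0 TPM, and over the 18 detected genes 217 and 179 TPM. The log2 ratio of pump over hydrolases was 1.14 in replicate 1 and -0.07 in replicate 2 (mean 0.53 ± 0.85, SD, n = 2), a difference smaller than the spread. The 26 symbols include Atp6v1fnb, at 0 counts, which is not a pump subunit. Without it the pump median was 135.1 and 115.4 TPM and the log2 ratio 1.14 and 0.14, so the sign in replicate 2 turned. Over detected genes alone the same log2 ratio was 1.83 and 0.77, above 0 in both libraries. The membrane median stood above the pump median by 1.97 and 3.24 on the log2 scale (mean 2.60 ± 0.90, SD, n = 2).

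Among the soluble cofactors, Psap stood apart from every other gene described here. Psap, the precursor of the saposins that present sphingolipids to their hydrolases, was at 8533 TPM in replicate 1 and 8476 TPM in replicate 2. That placed it at rank 10 of the protein-coding genes by mean TPM and gave it 39.2% and 32.6% of the TPM of all 57 genes. Npc2, which carries cholesterol in the lumen, was at 762 and 699 TPM. Psap and Npc2 were steady between the libraries, with log2 ratios of scaled counts (replicate 2 over replicate 1) of 0.16 and 0.04. Gm2a, the activator of GM2 ganglioside breakdown, was at 89.6 and 152 TPM and was the only cofactor 1.5-fold or more apart.

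The leading hydrolases were a protease, a glycosidase and a lipase. Lgmn, the asparagine-specific protease legumain, was at 1076 and 1495 TPM. Hexa, the alpha subunit of beta-hexosaminidase, was at 772 and 862 TPM. Lipa, the acid lipase that frees cholesterol and fatty acids from engulfed lipoproteins, was at 411 and 428 TPM. Man2b1, an alpha-mannosidase of glycoprotein breakdown, was the fourth by mean level at 217 and 298 TPM, although Asah1, the acid ceramidase, was level with it in replicate 1 (219 and 181 TPM). The lowest hydrolase was Manba, the beta-mannosidase, at 7.41 and 6.43 TPM, still above the detection level in both. By mean level the other 14 hydrolases ran from Tpp1 (165 and 279 TPM), a peptidase, down to Arsa (9.92 and 9.57 TPM), the sulfatase of sulfatide breakdown.

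Of the membrane proteins, 4 were abundant, and 3 were at no more than 105 TPM in either library. Lamp1, a main glycoprotein of the lysosomal membrane, was at 1687 and 3237 TPM (mean 2462 ± 1095, SD, n = 2). Laptm5, a transmembrane protein of blood cells that sorts receptors to lysosomes, was at 665 and 1820 TPM. Cd63, a tetraspanin, was at 1045 and 1201 TPM, and Lamp2, the partner of Lamp1, at 528 and 943 TPM. All 4 had higher TPM in replicate 2. The order of Laptm5 and Cd63 there was not settled, since the kallisto-layout quantification gave 1330 and 1385 TPM, and over coding transcripts alone Cd63 was at 1042 and 972 TPM, lower in replicate 2. Npc1, the cholesterol exporter, was at 88.3 and 105 TPM. By gene-level TPM the lowest were Scarb2, which carries glucocerebrosidase to lysosomes, at 71.8 and 63.1 TPM, and Mcoln1, a calcium channel, at 50.9 and 47.1 TPM. Over coding transcripts alone Npc1 was at 49.1 and 49.8 TPM, below Scarb2 at 71.6 and 63.1 TPM, so their order was not settled either.

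Of the transcription factors, Tfe3 was at 41.4 and 61.0 TPM, among the lower hydrolases such as Gaa (35.7 and 57.0 TPM). Tfeb was at 3.64 and 2.99 TPM, from 130 and 258 expected counts, and below every hydrolase, membrane protein and cofactor in both libraries. Their relatives Mitf (32.1 and 27.7 TPM) and Tfec (44.0 and 48.3 TPM), from the wider list below, were above Tfeb in both libraries.

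Promoter sequence was examined because the MiT element is the known shared feature of this gene set. RefSeq promoters on the GRCm38.p6 build, from 250 bases before to 50 bases after the gene start, were found for 48 of the 57 genes. The motif CACGTG, which reads the same on both strands, occurred in 12 of 48 (25%), against 8.09% of the 27025 genes of the table and 12.3% of the 7500 detected protein-coding genes in it. The longer TCACGTGA, which contains it, occurred in 5 of 48 (10.4%), against 1.12% of all and 2.44% of detected genes. With a further G before and C after TCACGTGA, the motif occurred in none of the 48 and in 0.37% of all genes. These counts describe letters in a fixed window and say nothing of binding.

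The holders were 6 hydrolases (Arsa, Gaa, Gla, Glb1, Lgmn and Naglu), 2 membrane proteins (Lamp1 and Mcoln1) and 4 pump genes (Atp6v0b, Atp6v0d1, Atp6v0e and Atp6v1a). No cofactor and neither transcription factor held the motif. Lamp1 had 4 copies, a number reached by 6 of the 27025 genes, and its stretch of 60 bases is shown first because it carries all of them. It lies at chr8:13159096-13159155 on the plus strand, from 65 to 6 bases before the start, outside annotated exons. The other 4 stretches hold TCACGTGA, which is in capitals there (the copy of Atp6v0e, just after its start and inside its own exon, is not shown), while capitals mark CACGTG in Lamp1. All are given 5′ to 3′ on the strand of the gene.
Lamp1: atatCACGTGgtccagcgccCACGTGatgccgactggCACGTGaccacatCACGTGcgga
Mcoln1: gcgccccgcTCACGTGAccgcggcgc
Atp6v0d1: ctactgcggTCACGTGAgacgcggtg
Atp6v1a: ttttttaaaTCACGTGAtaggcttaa
Gla: agcgattgaTCACGTGAgcatctacg
The Mcoln1 stretch is chr8:3500464-3500489, plus strand, with its motif 45 bases before the RefSeq start and inside an exon that GENCODE gives to Mcoln1. The Atp6v0d1 stretch is chr8:105566052-105566077, minus strand, in no gene of GENCODE. Its CACGTG begins 3 bases before the RefSeq start and runs across it. The Atp6v1a stretch is chr16:44139375-44139400, minus strand, with its motif 131 bases before the RefSeq start, outside exons but within the GENCODE gene. The Gla stretch is chrX:134601217-134601242, minus strand, with its motif 227 bases before the start and inside an exon of Hnrnph2, which runs on the opposite strand, and Gla had another copy 194 bases before its start. The median level was not higher among genes that held the motif. The 12 detected genes with it had a median of 135.6 and 150.7 TPM, and the 29 detected genes of the table without it 162.0 and 171.4 TPM.

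The V-ATPase is built from a soluble sector, V1, which splits ATP, and a membrane sector, V0, which carries the protons. Genes were summed by subunit position, with Tcirg1 added at position a because it encodes the a3 paralog although its symbol does not follow the pattern. Every one of the 13 positions had a detected gene, between 115.7 and 982 TPM in replicate 1 and between 55.3 and 1562 TPM in replicate 2. Position c, the proton-carrying ring subunit encoded by Atp6v0c, was highest in both libraries at 982 and 1562 TPM. Position H, a regulatory subunit of V1 encoded by Atp6v1h, was lowest in both at 115.7 and 55.3 TPM. Next below c came E at 526 and 578 TPM and a at 488 and 562 TPM, in replicate 1 with c'' (Atp6v0b) between them at 490 TPM. In replicate 2 the coding transcripts of Atp6v1e1, the gene at E, were at 385 TPM, so the order of E and a there was not settled. Median levels were 488 and 366 TPM for the 5 positions of V0, and 274 and 189 TPM for the 8 positions of V1.

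At 5 of the 7 positions encoded by more than 1 gene, a single ubiquitous paralog supplied nearly all transcripts. Atp6v1b2 was at 346 and 353 TPM while Atp6v1b1, the paralog known from kidney and inner ear, was at 0 counts in both libraries. Atp6v1c1 (134.5 and 142 TPM) and Atp6v1e1 (526 and 578 TPM) likewise stood beside Atp6v1c2 and Atp6v1e2 at 0 counts. At G, Atp6v1g1 held 99.1% and 97.5%, Atp6v1g2, known from neurons, 0.899% and 2.50%, and Atp6v1g3 was at 0 counts. At e, Atp6v0e held 99.99% in replicate 1, where Atp6v0e2 had 1 count, and all of it in replicate 2. Each such 0 is a limit: 3 counts, the floor set here, would have been 0.150 TPM for Atp6v1b1 in replicate 1 and 0.0876 TPM in replicate 2. The genes Atp6ap1l and Atp6v1fnb were also at 0 counts, and the latter is named for its place beside Atp6v1f.

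Position a, the subunit that steers the pump to particular membranes, was led by Tcirg1. Tcirg1 was at 399 and 428 TPM, which was 81.8% of the position in replicate 1 and 76.2% in replicate 2. Atp6v0a1 held 14.8% and 20.5%, Atp6v0a2 held 3.36% and 3.26%, and Atp6v0a4 was at 0 counts. The order of the paralogs at this position was thus the same in both libraries, with Tcirg1 at 79.0% ± 3.98 (SD, n = 2).

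Position d, part of the central stalk, was the only one whose leading paralog differed between the libraries. Atp6v0d2, known from osteoclasts and macrophages, was at 192 and 84.6 TPM. The ubiquitous Atp6v0d1 was at 135 and 162 TPM. Atp6v0d2 therefore held 58.7% of the position in replicate 1 and 34.3% in replicate 2 (mean 46.5% ± 17.2, SD, n = 2). The kallisto-layout quantification gave 57.6% and 33.3%. Of the expected counts, which are not scaled to length, Atp6v0d2 held 70.5% and 46.5%. Acp5, an osteoclast marker, was at 188 and 87.0 TPM, while Nfatc1 was at 8.64 and 16.2 TPM and Ctsk at 2.75 and 3.67 TPM. The part of osteoclast-like cells in the Atp6v0d2 value was not tested.

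**Figure D2:**
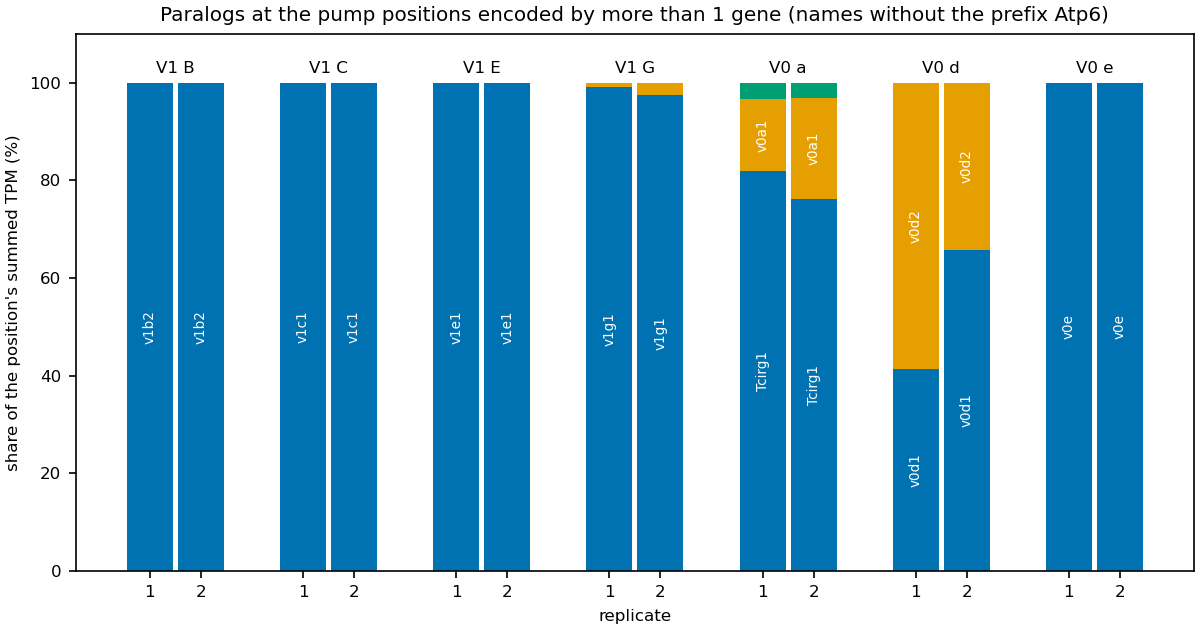
Bars show the share of each paralog, in percent of the position's summed TPM, in replicates 1 and 2 for the 7 pump positions encoded by more than 1 gene. Position d changes its leading gene between the libraries, Tcirg1 leads position a in both, and the unlabelled top segments are Atp6v1g2 at G and Atp6v0a2 at a.

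Differences between the libraries were described by ratios of counts after TMM scaling, which corrects for depth and composition, and 1.5-fold was taken as apart. There is 1 library on each side, so this is no test of a condition. Of 49 genes with enough counts, 16 were higher in replicate 2, where the background over the 12226 genes tested was 16.7%. Higher in replicate 1 were 3, against a background of 19.1%, and 30 were within 1.5-fold. In either direction 19 of 49 were apart, against 35.8% of all genes, so the members were apart about as often as other genes but mostly in 1 direction. The median log2 ratio (replicate 2 over replicate 1) was 0.32 over the 49 genes and -0.01 over all genes tested. With library size alone as the scaling, 11 were higher in replicate 2 and 4 in replicate 1, over backgrounds of 10.5% and 27%, and the median over all genes was -0.19. From ratios of TPM, 12 and 3 were, over backgrounds of 14.7% and 26.9%, with a median over all genes of -0.15. The common coefficient of biological variation over all genes was 0.319.

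Of the 7 membrane proteins, 3 differed, against 35.8% of all genes, and all 3 were higher in replicate 2, against 16.7%. Laptm5 was 2.46-fold higher there (95% Clopper-Pearson interval 2.43 to 2.49, for counting error only), Lamp1 2.17-fold (2.15 to 2.19) and Lamp2 1.53-fold (1.51 to 1.55). Cd63 was at 1.16-fold, and Npc1, Scarb2 and Mcoln1 were within 1.5-fold too. Lamp1 runs opposite to Grtp1 in the annotation, and the strand setting of the counting is not given in these sources. Of all 57 genes, 18 overlap another gene on the opposite strand.

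Of the 19 hydrolases, 6 differed, against 35.8% of all genes, and all 6 were also higher in replicate 2, against 16.7%. They were Arsb, which removes sulfate from dermatan sulfate, with a log2 ratio of 1.14, Tpp1 at 0.99, the beta-galactosidase Glb1 at 0.95, the glycogen-degrading Gaa at 0.85, the thioesterase Ppt1 at 0.81 and Lgmn at 0.60. The other 13 hydrolases were within 1.5-fold, with Manba lowest at -0.31. Gm2a had a log2 ratio of 0.92. Tfe3 had a log2 ratio of 0.61 and Tfeb of 0.42.

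Of the 18 pump genes tested, 5 were higher in replicate 2, against a background of 16.7% of all genes. Another 3 were higher in replicate 1, a share near the background of 19.1%. Higher in replicate 2 were Atp6v1g2 with a log2 ratio of 1.01 (60 and 181 counts), Atp6v0a1 at 0.92, Atp6v1d, of the central shaft, at 0.90, Atp6v0c at 0.71 and the accessory subunit Atp6ap1 at 0.66. Higher in replicate 1 were Atp6v0d2 at -1.01, the accessory subunit Atp6ap2, also called the prorenin receptor, at -0.97, and Atp6v1h at -0.91. The catalytic subunit gene Atp6v1a was at -0.51 and its partner Atp6v1b2 at 0.20, both within 1.5-fold. The 18 pump genes tested had a median log2 ratio of 0.14, with 9 V1 genes at -0.21 and 7 V0 genes at 0.34. The pump genes ran from -1.01 to 1.01, the hydrolases from -0.31 to 1.14 and the membrane proteins from -0.02 to 1.30. At the ends of the pump genes here were Atp6v0d2 and Atp6v1g2, alternative paralogs at positions encoded by more than 1 gene. The ends depended on the setting. After the trend with GC content and length described below was removed, they were Atp6v1h at -0.62 and Atp6v1d at 1.28. By kallisto-layout counts Atp6v0a1 was highest, at 0.92.

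**Figure D3:**
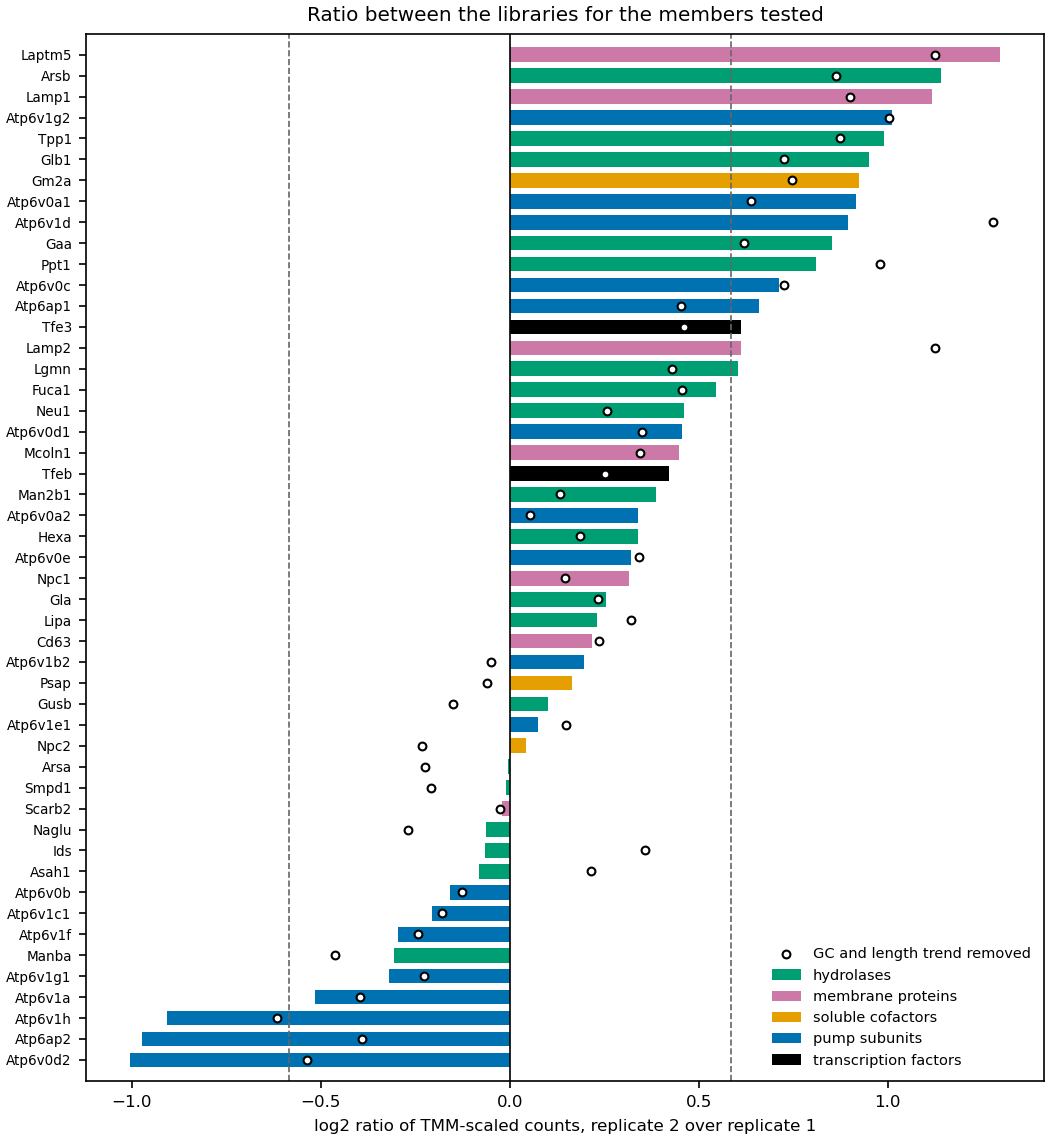
Bars give log2 ratios (counts after TMM scaling, replicate 2 against replicate 1) for the 49 genes with enough counts, coloured by class, and open circles give the ratio after a trend with GC content and length was removed. Dashed lines mark 1.5-fold; 16 bars pass the right line, 3 the left, and the 3 lowest bars are pump genes.

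The ratio moved with the GC content of the transcripts across all genes, and the lysosomal genes followed. The median log2 ratio was -0.70 in the tenth of genes with the lowest GC content (median 40.2% GC) and 0.19 in the tenth around 54.5% GC. Across genes, which are not independent replicates and share these libraries, Pearson's r was 0.35 and Spearman's rho 0.30 over the 49 members, and 0.32 and 0.33 over 12217 genes. All 3 members higher in replicate 1 were among the 7 with under 45% GC (Atp6ap2 at 40.5%, Atp6v0d2 at 41.5% and Atp6v1h at 44.2%). Of the same 7, 2 were higher in replicate 2. Of the 42 with 45% GC or more, 14 were higher in replicate 2 and none in replicate 1. Genes apart were not counted over all genes in these GC ranges, so no background is given.

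**Figure D4:**
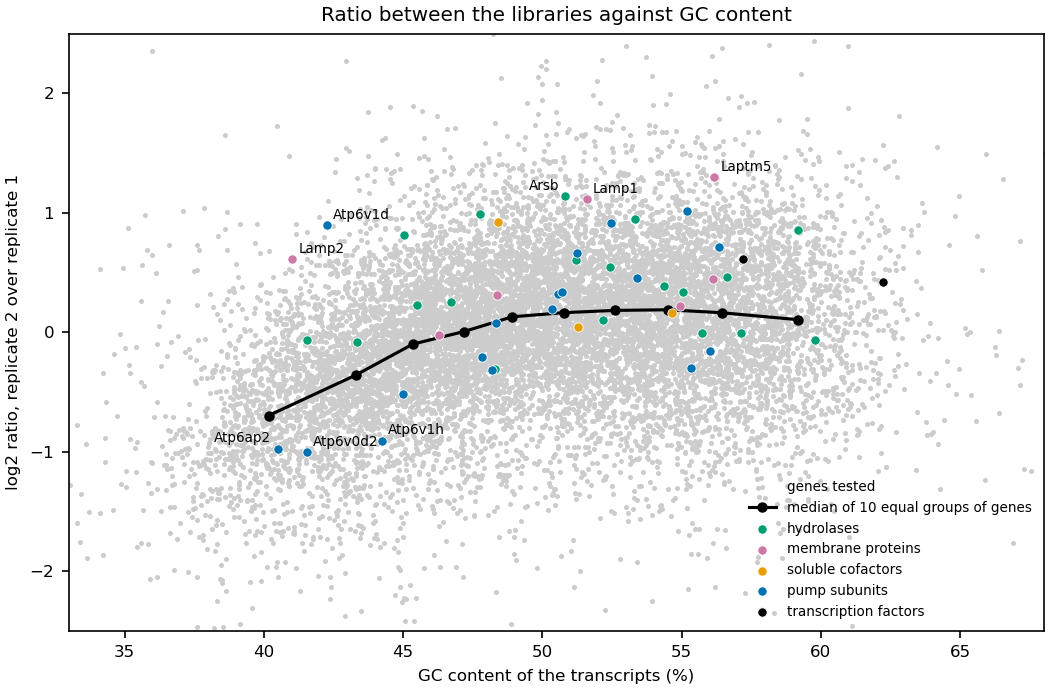
Grey points are genes tested, by GC content in percent and log2 ratio (replicate 2 over replicate 1), with 59 genes outside the plotted range, and the line joins medians of 10 groups of equal size. Coloured points are the lysosomal genes; Atp6ap2, Atp6v0d2 and Atp6v1h lie low at the left, while Lamp2 and Atp6v1d lie high at similar GC content.

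After a trend with GC content and length, fitted over all genes, was taken out, 13 members were higher in replicate 2 and 1 in replicate 1, against backgrounds of 14.8% and 14.7%. Atp6v1h was the gene that stayed higher in replicate 1, at -0.62, whereas Atp6v0d2 moved to -0.54 and Atp6ap2 to -0.39. Atp6ap1 (0.45), Lgmn (0.43) and Tfe3 (0.46) also came within 1.5-fold. Laptm5 (1.12) and Lamp1 (0.90) stayed apart, and 2 genes of low GC content moved further up, Lamp2 to 1.12 and Atp6v1d to 1.28. The median over the members was then 0.24 on the log2 scale. Over 7 alternative settings, 11 of the 19 genes apart were called the same way in each: Laptm5, Lamp1, Arsb, Tpp1, Glb1, Gaa, Ppt1, Gm2a, Atp6v0a1, Atp6v1g2 and Atp6v1h. Calls were lost only with library size alone, with ratios of TPM or with the trend removed, and the other settings changed none of the 19. The share of calls kept over all genes is not given.

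Most of the genes kept 1 main transcript in both libraries, and a few did not. Of 46 detected genes with more than 1 annotated transcript, 41 had the same leading transcript in both libraries, and 36 had the same one in both libraries and both quantifications. The median protein-coding share of a gene's TPM was 98.7% in replicate 1 and 99.3% in replicate 2.

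Lamp2, whose transcripts are known to differ at the 3' end and to encode different membrane anchors, showed 1 of the clearest shifts. Lamp2-202 was at 318 TPM (60.3% of the gene) in replicate 1 and 245 TPM (26.0%) in replicate 2, and Lamp2-201 at 205 TPM (38.7%) and 694 TPM (73.6%). Lgmn-201 held 86.0% in replicate 1 and 43.6% in replicate 2, where Lgmn-202 led with 56.2%. For both genes the kallisto-layout quantification had the same leading transcripts, with Lamp2-202 at 58.0% in replicate 1 and Lgmn-202 at 52.3% in replicate 2. Both pairs of transcripts are protein-coding.

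Of the other genes, 3 were led in at least 1 library by a transcript that is not annotated as coding, in the RSEM layout. Arsa was led by Arsa-201, a retained-intron transcript, in both libraries (60.1% and 72.1%), so its coding transcripts together were at 3.96 and 2.67 TPM of the gene's 9.92 and 9.57. Fuca1, an alpha-fucosidase, was led in replicate 2 by Fuca1-205, a short processed transcript, at 49.7%. Npc1 was led in replicate 2 by the retained-intron Npc1-206 at 52.1%, but in the kallisto-layout quantification Npc1-201 led both libraries, at 76.7% and 74.3%. In that quantification Atp6v1c1 was led in replicate 2 by Atp6v1c1-206, a processed transcript of 390 bases, at 54.8%, against 37.6% in the RSEM layout. The coding transcripts of Atp6v1c1 were at 118 and 87.8 TPM of the gene's 134.5 and 142. Tfe3 was divided among several coding transcripts. In replicate 1 Tfe3-205 (31.8%) and Tfe3-214 (31.3%) were nearly level, and in replicate 2 Tfe3-214 led at 40.3%. In the kallisto-layout quantification Tfe3-204 led replicate 1 at 29.4%, with Tfe3-205 at 16.9%, and Tfe3-214 led replicate 2.

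**Figure D5:**
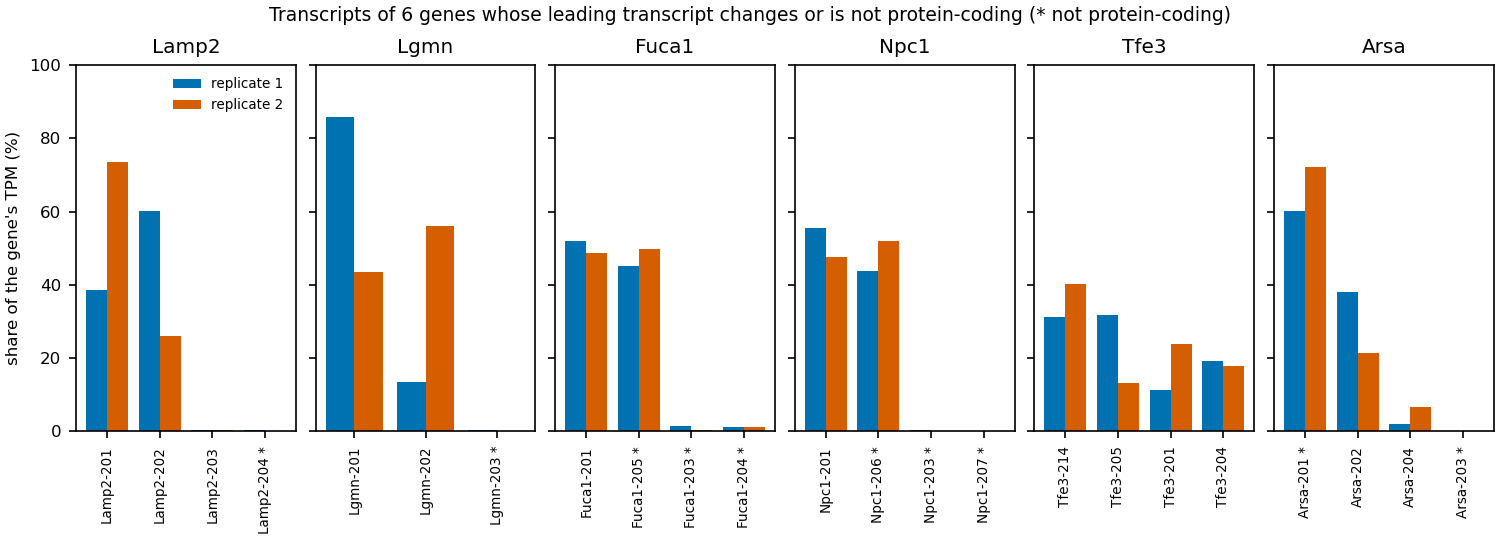
Bars give, in percent of the TPM of the gene, the shares of up to 4 transcripts of 6 genes in replicate 1 (blue) and replicate 2 (orange), with an asterisk for transcripts not annotated as protein-coding. The leading transcript differs between the libraries for all but Arsa, which a retained-intron transcript leads in both.

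These shifts moved gene-level TPM, because a short transcript adds more TPM per read than a long one. Atp6v1d was at 157 and 171 TPM although its counts were 1.86-fold higher in replicate 2. Its 775-base retained-intron transcript Atp6v1d-202 held 37.6% in replicate 1 and 0.163% in replicate 2, and its coding transcript alone was at 92.7 and 168 TPM. Laptm5-208, a processed transcript of 341 bases, held 7.41% and 27.1%, against 0 and 0.126% in the kallisto-layout quantification. The coding transcripts of Laptm5 alone were at 615 and 1320 TPM, still 2.15-fold higher in replicate 2. Atp6v1e1 was at 525 and 385 TPM in coding transcripts alone, against 526 and 578 TPM in all. Both quantifications gave gene levels within 1.5-fold of each other, in both libraries, for 47 of 49 genes, and Atp6v1g2 and Manba were the exceptions.

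A wider list of 63 other lysosomal genes was set beside these. At 1 TPM or more in both libraries were 62 of the 63, with median levels of 36.0 and 35.6 TPM. Higher in replicate 2 were 13, higher in replicate 1 were 4, and 46 were within 1.5-fold, against the same backgrounds as above. Their median log2 ratio was 0.21, between that of the members and that of all genes. After the trend with GC content and length was removed, 13 were higher in replicate 2 and 4 in replicate 1, and the median was 0.13. CACGTG occurred in 15 of the 48 that have a promoter in the table (31.2%), and TCACGTGA in 8.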

How the data were processed

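The authors deposited, per library, a gene table and a transcript table in the layout RSEM writes, and a transcript table in the layout kallisto writes. Per the deposited notes they rest on mm10 and GENCODE M21; no aligner, quantifier version or strand setting is given in the sources used here. Deposited expected counts are estimated reads per gene, not normalized. Length and library size are both taken into account in the deposited TPM values, as in the deposited FPKM values, which served in 1 alternative. The percent column deposited by the authors is each transcript's share of its gene. Rows naming no gene (0.132% and 0.0882% of expected counts) were left out. Expected counts were rounded, filtered with filterByExpr and scaled by TMM in edgeR 4.0.16 (R 4.3.3), with a prior count of 2 for log2 ratios; DESeq2 1.42.0 size factors were an alternative. No p-value was made, since there is 1 group. The GC and length trend was a spline with 4 degrees of freedom per term and fitted 17.3% of the variance of ratios. On counts simulated for these libraries, 99 of 100 genes changed 2-fold and 100 of 100 changed 3-fold were recovered over 12555 genes. With a simulated GC trend added and removed, 100 of 100 were recovered at each size over 12534 genes. The simulated counts varied by counting error only, so the recovery checks the calculation and not the spread between real libraries. Before removal the simulated ratio had a Pearson's r of 0.722 with GC content, against 0.322 over all genes in these data. Detection was 1 TPM in both libraries. Named genes were the 4 highest and the lowest of each class, all cofactors, transcription factors and paralogs, every gene 1.5-fold apart and every gene whose leading transcript differed; others were chosen after their values were seen. Members and lists were chosen with earlier results of these data known. Intervals cover counting error only, and reads are not independent molecules.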

Additional observations from a re-analysis of the deposited data

How the results depend on the processing

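With 2 libraries of 1 donor record, every SD rests on 2 values, and levels under the floor set at 3 counts were not told apart from 0. No paired analysis was possible because there was 1 group. Of 121 recomputed values, 99 stayed on the same side or within the spread, but some of these could not have left the spread. With 2 libraries, leaving out 1 gives the value of the other, which always lies within the SD of the mean. Counting only detected genes changes nothing in a class whose genes were all detected. The cofactor median of 730 TPM was 679.9 by the kallisto-layout tables and 881 over nuclear protein-coding genes alone, and the pump median was 198 over detected genes. The membrane over hydrolase log2 ratio was 2.15 from means of log2(TPM + 1), 2.75 with cofactors counted as hydrolases and 3.34 over protein-coding transcripts alone, an alternative chosen after seeing the data, as was leaving out Atp6v1fnb, which gave 0.64 for pump over hydrolases. Pump over hydrolases reversed to -1.27 from means of log2(TPM + 1) and ranged from -0.068 to 1.14 when each replicate was left out. The share of TPM in the 57 genes was 2.88% over nuclear protein-coding genes, and their share of expected counts was 3.16%. Genes higher in replicate 1 numbered 1 with the GC and length trend removed and 1 at 2-fold, where 4 were higher in replicate 2. The median share of a position in its leading paralog was 99.97% by the kallisto-layout tables and 99.98% by counts, and that of a gene in its leading transcript was 89.0% by the kallisto-layout tables. Promoters with TCACGTGA numbered 5 and with a further G before and C after it 0, against 12 with CACGTG. The cause of each change was not tested.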

Other observations

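The groups of the wider lysosomal list are given here with the backgrounds of 16.7% of all genes higher in replicate 2 and 19.1% higher in replicate 1. Of 15 transporters and other membrane proteins, 5 were 1.5-fold or more higher in replicate 2 and none was in replicate 1, with the equilibrative nucleoside transporter Slc29a3 at a log2 ratio of 1.42 (33.7 and 78.9 TPM), Tmem192 at 1.35 (77.4 and 174 TPM), Abca2 at 1.24 and the cystine transporter Ctns at 1.13. Of 21 further hydrolases, 6 were higher in replicate 2 and 1, the phospholipase Pla2g15, in replicate 1 at -0.60. Of the 9 genes of the Lamtor and Rag scaffold, which recruits mTORC1 to the lysosome, 8 were within 1.5-fold and Lamtor4 was at -0.81. Of 9 pump assembly genes with Tcirg1, 2 were higher in replicate 1, Dmxl1 at -0.80 and Dmxl2 at -0.67, a share near the background. With the GC and length trend removed, Dmxl1 was at -0.10 and Dmxl2 at -0.47. These genes were named after their values were seen, and differences between the groups were not tested.

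Several detected genes had a short transcript present in 1 library and nearly missing in the other. Cd63-203, a processed transcript of 514 bases, held 0.212% of Cd63 in replicate 1 and 19.0% in replicate 2, and by the kallisto-layout quantification 0.335% and 42.4%. Atp6v1e1-202, a retained-intron transcript of 731 bases, held 0% and 33.2%, and by the kallisto-layout quantification 0.443% and 44.2%. Atp6v0c-202, a coding transcript of 796 bases, held 1.42% and 26.0%, and by the kallisto-layout quantification 1.59% and 63.2%. Atp6v1d-202 lay the other way, as given above. The direction was the same in both quantifications for these 4 transcripts, which were chosen after their values were seen.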
